A study of Mus musculus with 12 samples.

Results

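Macrophages are the resident phagocytes of the ovary, where they are known for clearing cells from regressing follicles and corpora lutea. They depend on the growth factor receptor CSF1R, read bacterial products through CD14, bind antibody through Fc receptors and make most of the body's C1q. C1q is the recognition molecule of the classical complement pathway: it binds antibody complexes and dying cells, and then activates the proteases C1r and C1s, which cleave further complement proteins. The genes described here are 10 macrophage markers and C1q chains: Cd14, Csf1r, Aif1, C1qa, C1qb, Fcgr1, Cd68, Lyz2, Mrc1 and Tyrobp. They were taken by their gene symbol in the platform annotation, with every probe set of each gene. Of the 10 genes 7 were measured, by 9 probe sets among the 14674 with 1 gene symbol. Csf1r had 3 probe sets and the other 6 genes had 1 each, while Cd68, Mrc1 and Tyrobp were not analysed here.

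Whole-ovary RNA was measured on arrays in 12 female mice of 23 weeks, each taken at diestrus. All 12 mice carried the Pgrcre allele in a single copy (Pgrcre/+). The 6 controls carried only this allele and had no tumor, while the other 6 had the genotype Pgrcre/+PgrBLsL/+. Of these, 3 were labelled stage I of tumor progression and 3 stage II. The title of the series speaks of constitutive progesterone receptor expression, and Pgr is the gene of that receptor. The labels name no mouse strain, do not say which ovarian cells recombined the PgrBLsL allele, and do not define the stages. Every ovary with PgrBLsL had a tumor stage, so allele and tumor cannot be told apart against the controls. Both stages are set against the same 6 controls.

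Levels are the deposited log2 values, in which a difference of 1 is a doubling. Array medians lay between 7.09 and 7.15, and values of different probe sets cannot be ranked against each other as amounts of transcript. Pgr, measured once as a check of the labels, was 3.74 to 4.60 in controls, 9.05 to 9.28 in stage I and 9.78 to 10.09 in stage II. The ovarian identity of the tissue was visible in control means of 9.29 for the oocyte gene Zp3, 11.89 for the granulosa gene Inhba and 11.51 for the theca gene Cyp17a1. In whole ovaries, more macrophages, more RNA per macrophage, a smaller share of other cells and RNA from other cell types cannot be told apart.

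In stage II ovaries 8 of the 9 probe sets, covering 6 of the 7 genes, were higher than in controls by limma's test with an adjusted p under 0.05. Across all probe sets 20.2% passed this test in stage II, 9.57% as higher. The median log2 difference was 0.50 over the 9 probe sets and -0.01 over all probe sets. In stage I all 9 probe sets had means above control, with a median difference of 0.44, but limma called 0 of them. At an unadjusted p under 0.05 it was 8 of 9 in stage I, against 3.55% of all probe sets as higher at that level. The adjusted test called 0.191% of all probe sets in stage I. Between stage II and stage I, Cd14 alone among the 9 probe sets passed, where 11.4% of all probe sets did, 6.25% as higher. Cd14 was also the only member whose stage II arrays all lay above the stage I arrays, as 14.6% of all probe sets did. After quantile normalization the share of calls that were higher changed by over 10 percentage points in that comparison, from 917 of 1669 to 888 of 2018, and Cd14 was called in both.

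**Figure D1:**
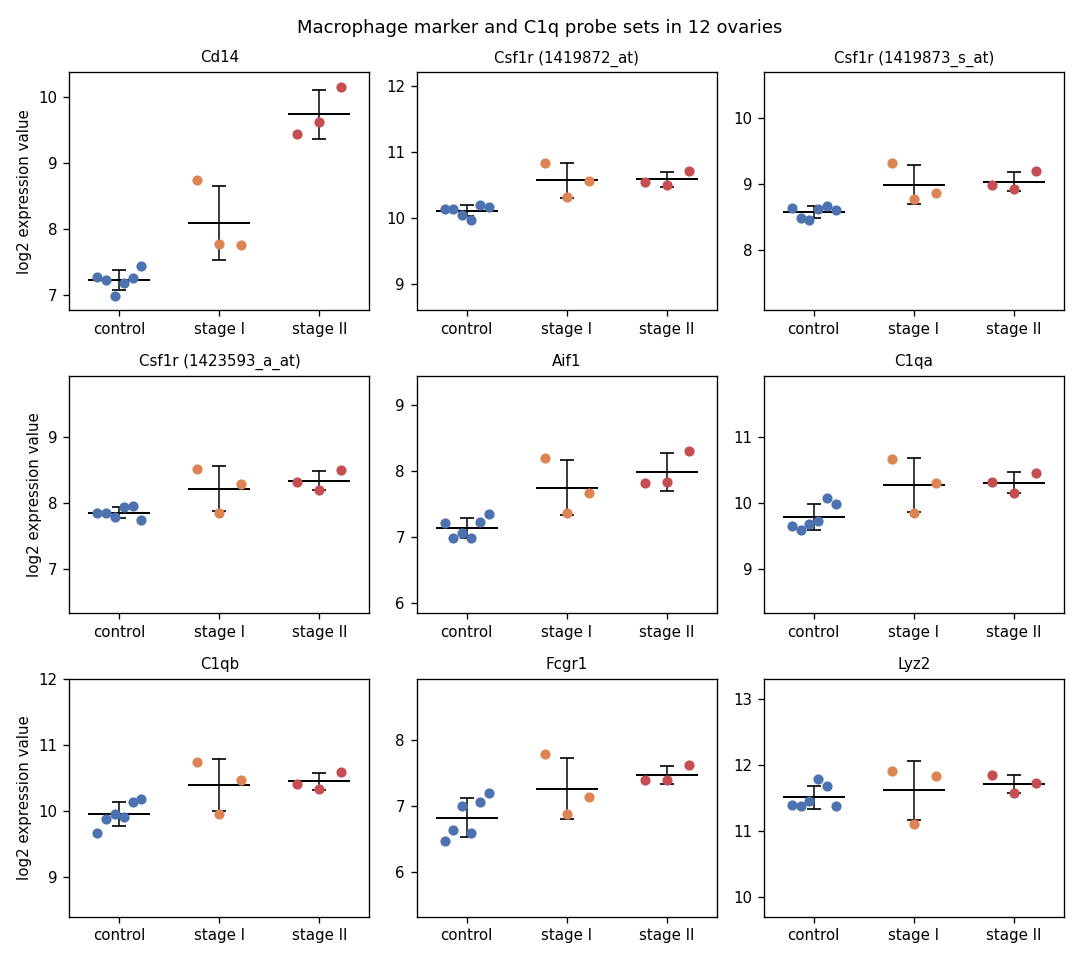
Log2 expression value (y axis, the same span of 3.6 in every panel) of each of the 9 probe sets in 6 control, 3 stage I and 3 stage II ovaries. Points are ovaries in the order of their replicate numbers, lines are group means and bars are SDs. Cd14 climbs from about 7.23 to 9.74, while the other probe sets shift by less than 1 and Lyz2 overlaps between groups.

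Cd14 encodes the receptor that hands bacterial lipopolysaccharide to Toll-like receptors. It is carried by monocytes and macrophages and, in several tissues, also by epithelial cells. Its log2 level ran from 6.99 to 7.45 in controls, with a median of 7.25. The stage I replicates 1, 2 and 3 stood at 8.75, 7.78 and 7.76, and the stage II replicates at 9.43, 9.62 and 10.16. The 3 groups thus did not overlap at all, and stage I replicate 1 was closer to stage II than the other stage I ovaries were. The group means were 7.23 ± 0.15 (SD, n = 6), 8.10 ± 0.56 (n = 3) and 9.74 ± 0.37 (n = 3).

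Cd14 was 5.68-fold higher in stage II than in controls (log2 2.50 ± 0.21 SE, adjusted p = 5.6e-06), which placed it as number 92 of all probe sets by size of increase. Stage II exceeded stage I 3.12-fold (log2 1.64 ± 0.24 SE, adjusted p = 0.0016). Both calls held in all 12 fits that left out 1 array. Stage I exceeded control by 0.86 ± 0.21 SE, a difference that did not pass (adjusted p = 0.27), and that was 0.54 without stage I replicate 1.

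CSF1R is the receptor tyrosine kinase on which macrophage survival depends, and its 3 probe sets read the same gene. On the brightest, 1419872_at, controls lay between 9.97 and 10.20 with a median of 10.14. Stage I replicates 1 to 3 had 10.84, 10.32 and 10.56, and stage II replicates 1 to 3 had 10.55, 10.51 and 10.72. Every ovary with PgrBLsL was above every control on this probe set, and the stage II values lay within the wider stage I range. The log2 difference was 0.48 ± 0.10 SE in stage II (1.39-fold, adjusted p = 0.0057) and 0.46 ± 0.10 SE in stage I (adjusted p = 0.15). Probe set 1419873_s_at had 8.46 to 8.68 in controls, 9.33, 8.77 and 8.88 in stage I, and 8.98, 8.93 and 9.20 in stage II. Probe set 1423593_a_at had 7.75 to 7.96 in controls, 8.51, 7.86 and 8.30 in stage I, and 8.32, 8.20 and 8.50 in stage II. These also rose in stage II, by 0.45 and 0.48 (adjusted p = 0.013 and 0.014), and stage I replicate 2 lay within the control range on the latter.

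Between the stages the Csf1r probe sets differed by 0.02, 0.05 and 0.12, and the 95% confidence interval of 1419872_at ran from -0.23 to 0.27. That interval excludes a change of the size seen in Cd14. Leaving out replicate 3 of stage II removed the stage II calls of 1419873_s_at and 1423593_a_at (adjusted p = 0.086 and 0.088). In stage I, leaving out replicate 2 brought 1419872_at and 1423593_a_at past the threshold (log2 0.59 and 0.55, adjusted p = 0.03 and 0.047), while without replicate 1 their differences were 0.33 and 0.22.

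Aif1 encodes IBA1, a calcium-binding protein of the macrophage cytoskeleton that is used to stain these cells. Its level was 6.97 to 7.34 in controls (median 7.13), 8.19, 7.36 and 7.67 in stage I, and 7.81, 7.82 and 8.30 in stage II. Stage I replicate 2, at 7.36, stood just above the highest control, and stage I replicate 1 reached the stage II range. Aif1 rose 1.80-fold in stage II (log2 0.85 ± 0.16 SE, adjusted p = 0.0037), and this held in all 12 fits that left out 1 array. In stage I the difference was 0.61 ± 0.16 SE (adjusted p = 0.37), and 0.38 without replicate 1. Stage II minus stage I was 0.24, with an interval from -0.17 to 0.65.

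**Figure D2:**
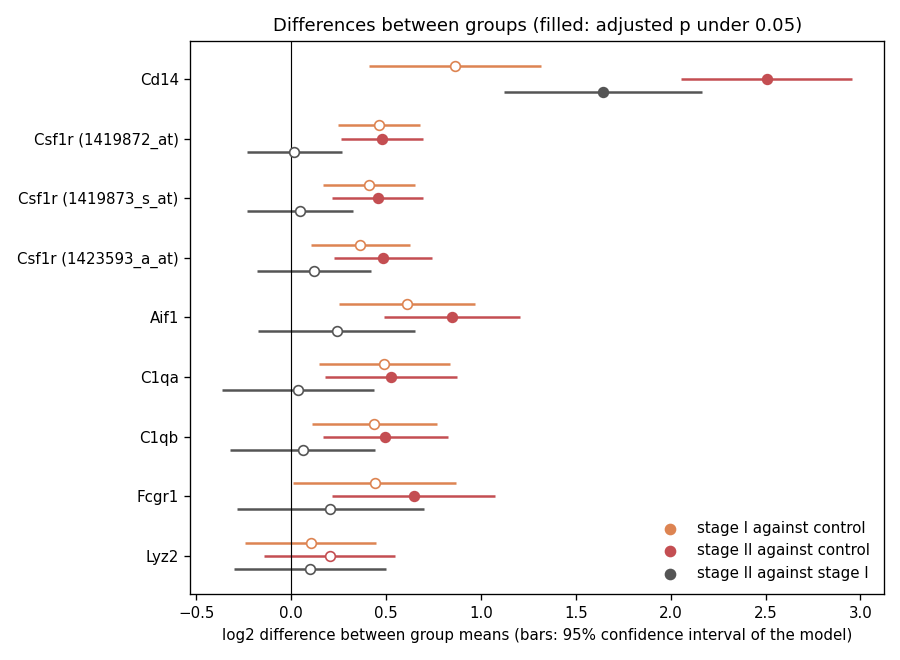
Log2 difference between group means (x axis) for each of the 9 probe sets (y axis), for each stage against control and for the stages against each other. Points are estimates, filled where the adjusted p is under 0.05, and bars are 95% confidence intervals. For Cd14 the interval between the stages lies wholly above 0 (1.12 to 2.16), while for the other 8 probe sets it spans 0.

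C1qa and C1qb encode the A and B chains of C1q. In the RefSeq annotation they lie on chromosome 4 with C1qc, the gene of the third chain, directly between them, and C1qc was not analysed here. C1qa ran from 9.59 to 10.07 in controls (median 9.70), stood at 10.67, 9.85 and 10.30 in stage I, and at 10.32, 10.15 and 10.46 in stage II. C1qb ran from 9.67 to 10.18 in controls (median 9.93), stood at 10.74, 9.96 and 10.48 in stage I, and at 10.41, 10.34 and 10.60 in stage II. Both chains placed the ovaries alike against the control range. Stage II was above all controls, stage I replicates 1 and 3 were too, and stage I replicate 2 was within the controls.

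C1qa rose 1.44-fold in stage II (log2 0.52 ± 0.16 SE, adjusted p = 0.036) and C1qb 1.41-fold (0.50 ± 0.15 SE, adjusted p = 0.038). Both calls lay close to the threshold. C1qa was no longer called when any of control replicates 1 to 4, or replicate 1 or 3 of stage II, was left out (highest adjusted p = 0.17). For C1qb this was so for the same arrays and for stage II replicate 2 (highest adjusted p = 0.17). In stage I the differences were 0.49 and 0.44 (adjusted p = 0.56 and 0.62), and 0.29 and 0.26 without replicate 1. Stage II minus stage I was 0.03 for C1qa (interval from -0.37 to 0.43) and 0.06 for C1qb (-0.32 to 0.44).

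Because most of these genes shifted together, the start regions of 4 of them were read in the RefSeq promoter table (GRCm38.p6). These were C1qb, Fcgr1, Aif1 and Lyz2. The sequence sought was GAGGAA, a core sequence bound by the macrophage factor PU.1. The search covered the 250 bases before the annotated start on both strands, and no other motif was searched. GAGGAA was present in 3 of the 4 windows, those of C1qb, Fcgr1 and Aif1, and in 23.3% of all 32851 windows of that length. Cd14, Csf1r and C1qa are not among the 4 windows, so this count does not cover all members. The following 3 windows are those of C1qb and Fcgr1, which were called in stage II, and of Lyz2, which was not. The window of Aif1 overlaps a longer transcript of its gene and is not printed. Whether the motif goes with the stage II call was not tested, and these windows cannot show it, as Cd14 and Csf1r are missing. They are printed 5′ to 3′ on the gene's strand, with GAGGAA or its reverse complement in capitals.
C1qb, chr4:136886201-136886450, minus strand: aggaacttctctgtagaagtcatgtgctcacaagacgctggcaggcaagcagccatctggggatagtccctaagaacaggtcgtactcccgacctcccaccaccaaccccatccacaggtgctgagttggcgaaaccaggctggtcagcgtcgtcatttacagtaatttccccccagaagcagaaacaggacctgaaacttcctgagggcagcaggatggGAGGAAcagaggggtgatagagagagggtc
Fcgr1, chr3:96293970-96294219, minus strand: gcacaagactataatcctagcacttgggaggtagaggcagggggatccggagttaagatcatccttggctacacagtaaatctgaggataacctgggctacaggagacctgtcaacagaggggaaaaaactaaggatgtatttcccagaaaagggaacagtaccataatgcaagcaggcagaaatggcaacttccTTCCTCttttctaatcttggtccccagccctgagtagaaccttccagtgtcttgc
Lyz2, chr10:117282273-117282522, minus strand: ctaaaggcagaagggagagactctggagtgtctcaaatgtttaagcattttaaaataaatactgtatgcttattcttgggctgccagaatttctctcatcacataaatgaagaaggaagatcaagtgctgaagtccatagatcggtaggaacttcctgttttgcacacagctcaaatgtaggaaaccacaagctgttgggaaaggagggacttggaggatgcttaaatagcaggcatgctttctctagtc
The match began 30 bases before the start in C1qb, and on the opposite strand it spanned bases 55 to 50 before the start in Fcgr1. These are matches of letters only, and binding of PU.1 was not measured. Spi1, the gene of PU.1, had control values between 6.04 and 6.31, stage I values of 6.59, 6.33 and 6.45, and stage II values of 6.49, 6.22 and 6.58. Its log2 differences of 0.26 in stage I and 0.23 in stage II did not pass (adjusted p = 0.62 and 0.094).

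Fcgr1 encodes the high-affinity Fc receptor for IgG. It ran from 6.47 to 7.19 in controls (median 6.82), the widest control range of the 9 probe sets. Stage I stood at 7.78, 6.88 and 7.13, and stage II at 7.40, 7.39 and 7.62. Stage II lay above all controls, and in stage I replicate 1 alone did. Fcgr1 rose 1.56-fold in stage II (log2 0.64 ± 0.20 SE, adjusted p = 0.037), and was 0.44 ± 0.20 SE above control in stage I (adjusted p = 0.79), or 0.18 without replicate 1. Its stage II call was lost when control replicate 1, 2 or 4 or any stage II array was left out (highest adjusted p = 0.16).

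Lyz2 encodes lysozyme, a bactericidal enzyme of macrophages and neutrophils, and was the member that limma did not call in stage II. Its level was 11.38 to 11.78 in controls (median 11.42), 11.90, 11.10 and 11.83 in stage I, and 11.84, 11.57 and 11.72 in stage II. The groups overlapped, and stage I held both the highest and the lowest value of all 12 ovaries. The difference in stage II was 0.20, with an interval from -0.15 to 0.55 (adjusted p = 0.42), so an increase of the size seen in Csf1r or C1qa is not excluded. In stage I it was 0.10 (interval from -0.25 to 0.45), and -0.04 without replicate 1.

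**Figure D3:**
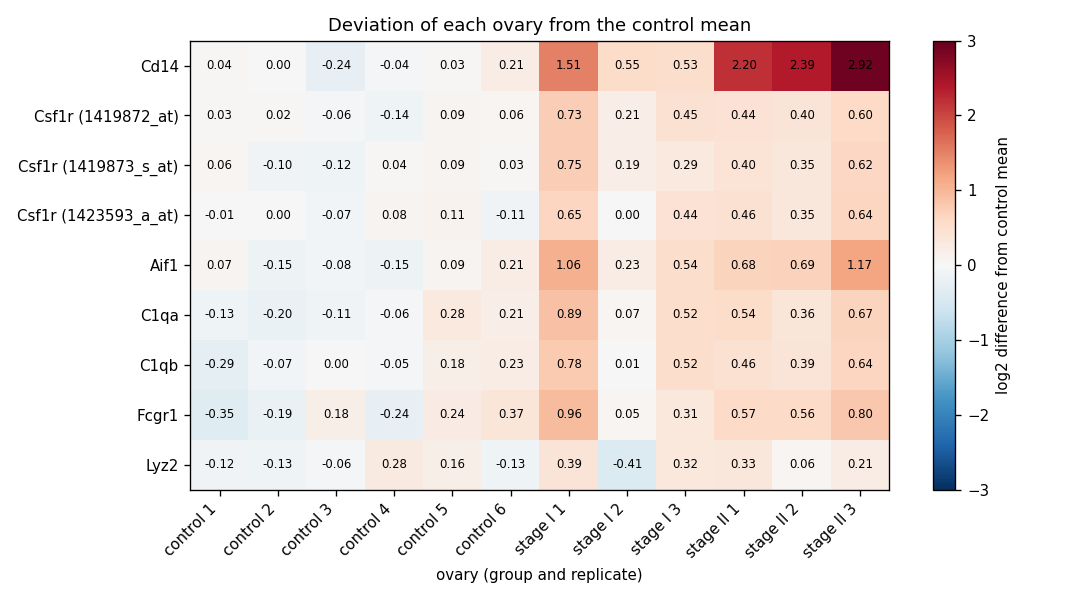
Difference of each ovary from the control mean in log2 units (colour and printed number) for the 9 probe sets (rows) in 12 ovaries (columns). Stage I replicate 1 has the highest value of its group on all 9 probe sets, stage I replicate 2 lies nearest to the controls on all but Cd14 and Lyz2, and the Cd14 row alone separates stage II from stage I.

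The stage I ovaries differed from each other more than the stage II ovaries did on each of the 9 probe sets. Replicate 1 had the highest of the 3 stage I values on all 9, where it did so on 37.5% of all probe sets. In stage II, replicate 3 had the highest value on 8 of 9, where it did so on 43.6% of all probe sets. Without this array 3 of the 9 probe sets were called in stage II in place of 8. Over all probe sets, 1449 were then called in place of 2969. The same array was low in Cyp17a1, at 6.06 against 10.19 and 10.26 in the other stage II ovaries, and in Inhba, at 8.67 against 10.42 and 11.28. Its part in the results was not tested beyond leaving it out. Stage I replicate 1 was above every control on 9 of 9 probe sets, replicate 3 on 8 and replicate 2 on 4. In stage II, replicates 1, 2 and 3 were above every control on 9, 8 and 8 probe sets. How many of all probe sets each single ovary placed above every control was not counted, so these counts have no background beside them. Stage II did not overlap with control on 8 probe sets (9.87% of all probe sets were separated upwards in this way) and stage I on 4 (2.13% of all).

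With both stages averaged, 7 of the 9 probe sets were called higher against control, where 6.38% of all probe sets passed and 4.54% passed as higher. The differences ran from 0.42 to 0.51 for Csf1r, C1qa and C1qb and were 0.73 for Aif1 and 1.68 for Cd14. Fcgr1, at 0.54, had an adjusted p of 0.068. All ovaries with PgrBLsL lay above all controls on 4 probe sets, those of Cd14 and Aif1 and 2 of Csf1r (1.38% of all probe sets). In this comparison C1qa and C1qb were not called without any 1 of 8 arrays: control replicates 1 to 4 and replicates 1 and 3 of both stages (highest adjusted p = 0.087 and 0.1). The call of Csf1r 1423593_a_at was lost without control replicate 3 or stage II replicate 3 (highest adjusted p = 0.053). With the 6 ovaries carrying PgrBLsL fitted as 1 group, 2 of the 9 probe sets were called, where 54 of all 14674 passed in place of 936. Cd14 was not called in this fit (adjusted p = 0.072).

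Cd14 parted from Csf1r within the same arrays, a comparison chosen after the values were seen. The log2 value of Cd14 minus that of Csf1r 1419872_at was -3.06 to -2.73 in controls. In stage I it was -2.10, -2.54 and -2.80, and in stage II -1.11, -0.89 and -0.56. The difference thus changed by 2.03 from control to stage II (exact permutation test, two-sided p = 0.024, the smallest p that 3 against 6 arrays can give). From stage I to stage II it changed by 1.62, without overlap (exact permutation p = 0.1, the smallest that 3 against 3 can give), and from control to stage I by 0.40 (exact permutation p = 0.071).

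The counts in the gene lists below are set against all probe sets, of which 9.57% rose and 10.7% fell in stage II. These calls also depended on single arrays. Without stage II replicate 3, 920 of all 14674 rose and 529 fell, in place of 1405 and 1564. With any other single array left out, 1135 to 1489 rose and 1110 to 1642 fell. Among the 28 probe sets of 21 genes listed as CD14 and Toll-like receptor partners and targets, 6 rose (21.4%) and 0 fell, with a median of 0.11. Without stage II replicate 3 the count was 3, where 920 of all 14674 rose. The largest increase was in Cd36, a scavenger receptor of macrophages, fat cells and capillaries that works beside Toll-like receptors. Cd36 stood at 9.11 to 9.63 in controls, 10.85, 9.68 and 9.40 in stage I, and 11.70, 11.52 and 11.51 in stage II. Like Cd14 it was high in every stage II ovary and in stage I replicate 1. It was 4.84-fold higher in stage II than in controls (log2 2.28 ± 0.24 SE, adjusted p = 3.8e-05) and 1.61 higher than in stage I (adjusted p = 0.0041). The neutrophil chemokine gene Cxcl1 rose by 1.00 (adjusted p = 0.0035) and Irak3, an inhibitor of this signalling in macrophages, by 0.63 (adjusted p = 0.0019), and these calls held without any single array. Ly86, which encodes a partner of the receptor RP105, rose by 0.67 (adjusted p = 0.043), and was not called without any 1 of 7 arrays (highest adjusted p = 0.22). Tlr4, the signalling receptor that CD14 serves, had differences of -0.13, -0.15 and 0.07 on its 3 probe sets (adjusted p = 0.55, 0.43 and 0.62).

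**Figure D4:**
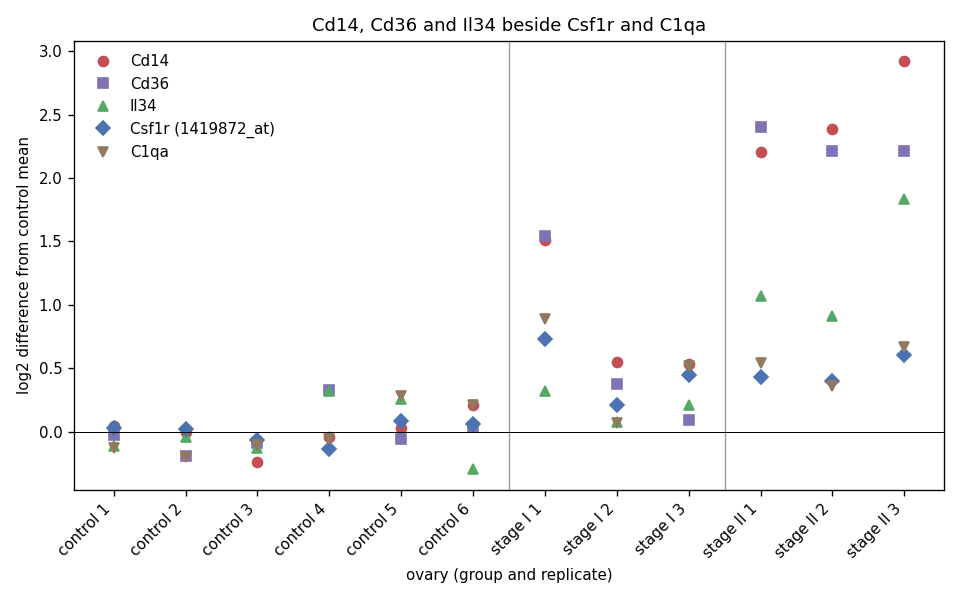
Difference from the control mean in log2 units (y axis) of Cd14, Cd36, Il34, Csf1r and C1qa in each of the 12 ovaries (x axis, grouped as control, stage I and stage II). In stage II, Cd14 and Cd36 lie above 2 and Il34 near or above 1, while Csf1r and C1qa stay below 0.7.

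The ligands of CSF1R were Il34 and Csf1. Il34 stood at 5.72 to 6.34 in controls, 6.33, 6.09 and 6.22 in stage I, and 7.09, 6.93 and 7.85 in stage II. Stage II was thus above both other groups, which overlapped. Il34 rose 2.42-fold in stage II (log2 1.27 ± 0.19 SE, adjusted p = 0.00055) and exceeded stage I by 1.07 (adjusted p = 0.009), and both calls held without any single array. Csf1 had 2 probe sets, with differences of 0.41 (adjusted p = 0.022) and 0.25 (adjusted p = 0.1) in stage II. The first of these calls was lost when stage II replicate 2 or 3 was left out (highest adjusted p = 0.14). Of all 34 probe sets of 21 genes in the list of CSF1R ligands and signalling, 4 rose (11.8%) and 1 fell (2.94%) in stage II, with a median of 0.08. The share that rose was near the 9.57% of all probe sets. Without stage II replicate 3 the count that rose was 1, and without control replicate 2 or 3 or stage II replicate 1 it was 2. The count that fell was 0 without control replicate 2, 4, 5 or 6, stage I replicate 3 or stage II replicate 3, and 2 without stage II replicate 1.

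Among the other complement genes, 3 of 32 probe sets (28 genes) rose in stage II and 5 fell, with a median of 0.02. These shares, 9.38% and 15.6%, stand beside 9.57% and 10.7% of all probe sets. The count that fell was 1 without stage II replicate 3, 2 without stage II replicate 1, and 3 without control replicate 2, 3 or 6 or stage I replicate 2. Without stage II replicate 3, 529 of all 14674 fell, in place of 1564. C1ra and C1s1, the proteases that C1q activates, had differences of -0.11 and -0.22 (adjusted p = 0.53 and 0.23), and their inhibitor Serping1 had -0.26 (adjusted p = 0.22). Clu, which encodes clusterin, a chaperone that blocks terminal complement, fell by 0.77 (adjusted p = 0.0086). Clu was not called once stage II replicate 3 was left out (adjusted p = 0.056). Mbl2, a lectin that starts complement activation, fell by 0.70 (adjusted p = 0.0039). Cd55, a brake on complement at the cell surface, fell by 0.65 (adjusted p = 0.041), and was not called without any 1 of 8 arrays (highest adjusted p = 0.21). C4bp, an inhibitor of the classical pathway, rose by 0.98 (adjusted p = 0.0041) from control values of 3.46 to 3.67, near the lowest value in the table, 2.69. C3ar1, the receptor for the fragment C3a, had 0.27 and 0.28 on its 2 probe sets (adjusted p = 0.38 and 0.3).

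The wider macrophage list held 34 probe sets of 24 genes, of which 4 rose (11.8%) and 3 fell (8.82%) in stage II, with a median of 0.10, both near the shares of all probe sets. Without stage II replicate 3, 1 fell. Those that rose include Cybb, a subunit of the phagocyte oxidase (0.91, adjusted p = 0.0059), and Cd9, a tetraspanin found on many cells (0.69, adjusted p = 0.0015). Lyve1, shared by tissue macrophages and lymphatic vessels, rose by 0.95 (adjusted p = 0.013), and was not called once stage II replicate 2 was left out (adjusted p = 0.055). Lpl, a lipase of macrophages and fat cells, fell by 0.68 (adjusted p = 0.0023). Among macrophage genes that did not pass, chosen after their values were seen, Mpeg1 had 0.26, Cd163 0.03, Mertk -0.03 and Lgals3 -0.14 (adjusted p = 0.15, 0.94, 0.83 and 0.52).

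TYROBP, itself not analysed here, carries signals for several receptors of myeloid cells. Its partners and the Fc receptor pathway gave 23 probe sets of 17 genes, of which 4 rose (17.4%) and 0 fell in stage II, with a median of 0.20. The 4 were Clec5a (0.44, adjusted p = 0.044), Trem2 (0.31, adjusted p = 0.049), Inpp5d (0.22, adjusted p = 0.037) and Btk (0.22, adjusted p = 0.047). Each of these calls was lost without stage II replicate 1 or 3, among other arrays (highest adjusted p = 0.23), and the second Trem2 probe set had -0.03 (adjusted p = 0.9). Clec5a was dim, at 3.60 to 4.21 in controls, where the lowest value in the table is 2.69. Stage II replicate 2 lay within the control range for Clec5a, at 4.03, and for the called Trem2 probe set, at 6.05. The list's count was 0 without control replicate 2, 3 or 5 or stage II replicate 3, and 1 without control replicate 6, stage I replicate 2 or 3 or stage II replicate 1. Fcer1g, the Fc receptor gamma chain, had 0.37 (adjusted p = 0.1). In the lysosome list 7 of 28 probe sets of 18 genes rose and 1 fell, with a median of 0.16. Without stage II replicate 1 or 3 the count that rose was 4, and without stage II replicate 2 the count that fell was 2. The list was led by Cstb, an inhibitor of cathepsins, at 1.37 and 1.86 (adjusted p = 1.4e-06 and 1.5e-06). Ctsc, a protease that activates enzymes of immune cells, rose by 0.90 (adjusted p = 0.00065).

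**Figure D5:**
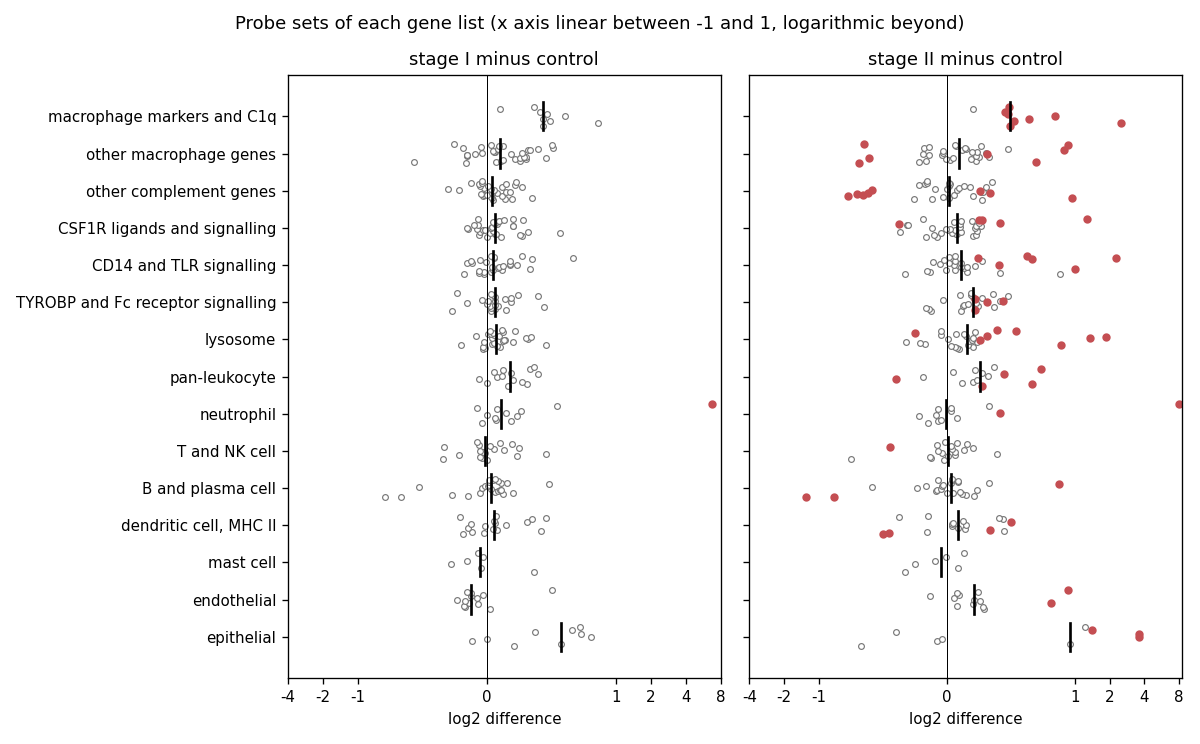
Log2 difference from control in stage I (left) and stage II (right) for every probe set of 15 gene lists (y axis). The x axis is linear between -1 and 1 and logarithmic beyond, red points have an adjusted p under 0.05, and black bars are medians. The macrophage markers and C1q sit at medians of 0.44 and 0.50, and the other complement genes at 0.04 and 0.02.

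Markers of other cells were set beside these results. Of 14 pan-leukocyte probe sets 4 rose and 1 fell in stage II, with a median of 0.26, and Ptprc, the CD45 gene, rose by 0.45 (adjusted p = 0.041). The mean level of this list was 6.79 to 6.89 in controls, 6.89 to 7.25 in stage I and 6.97 to 7.23 in stage II. Ptprc was not called without any 1 of 8 arrays (highest adjusted p = 0.2). The count of pan-leukocyte probe sets that rose was 0 without stage II replicate 3, and 2 without control replicate 2 or 3, stage I replicate 3 or stage II replicate 1. Neutrophil markers had a median of -0.01 over 12 probe sets. Lcn2, which epithelial cells also make (log2 8.05, adjusted p = 6.7e-07), and Camp (0.42, adjusted p = 0.011) rose among them, the latter not without stage II replicate 1 (adjusted p = 0.053). Lcn2 was the one probe set of all 20 lists that was also called in stage I. Of T and NK cell markers 0 of 19 rose and Thy1, also a stromal gene, fell by 0.44 (adjusted p = 0.011), a change not called without stage II replicate 3. In the mast cell list 0 of 6 passed. Of 25 B and plasma cell probe sets 1 rose and 2 fell, of 17 dendritic cell probe sets 2 rose and 2 fell, and of 13 endothelial probe sets 2 rose and 0 fell.

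Of 9 epithelial probe sets 3 rose and 0 fell in stage II, with a median of 0.96. The mean level of this list was 6.63 to 8.27 in controls, 7.45 to 8.25 in stage I and 7.84 to 8.80 in stage II. Krt8, a keratin of simple epithelia, rose by 3.59 and 3.64 on its 2 probe sets (adjusted p = 9.3e-06 and 9.9e-06), and Cldn3, a tight junction gene, by 1.42 (adjusted p = 6.2e-05). The keratin also exceeded stage I, by 2.78 and 2.91 (adjusted p = 0.0008 and 0.00069), as Cd14 did. Oocyte and granulosa lists had medians of -0.78 and -0.71 in stage II, and the list of fibroblasts and smooth muscle together had -0.49. In these 3 lists 7 of 8, 6 of 7 and 11 of 14 probe sets fell and 0 rose, where 10.7% of all probe sets fell. With 1 array left out, 6 to 8, 3 to 6 and 9 to 11 fell. Adipocyte markers had 2 higher and 3 lower of 9, theca and luteal markers 0 higher and 1 lower of 6, and erythroid markers 0 of 2 called. No marker was listed at 0, and the part of these cell types in the macrophage results was not tested.

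How the members varied together within groups is given as a description over the 12 arrays after subtraction of each group's mean. Pearson's r was 0.93 between C1qa and C1qb, 0.93 between Aif1 and Csf1r 1419872_at, 0.65 between Cd14 and Csf1r 1423593_a_at, and 0.30, the lowest of all pairs, between Cd14 and Lyz2. Without stage I replicate 1 these values were 0.91, 0.89, 0.45 and 0.05, so the lower ones rested in large part on that array. Of all other genes, the probe set whose deviations were most like the mean of C1qa and C1qb was Fcer1g (r = 0.96, Spearman's rho = 0.94). Next came C3ar1 (0.92 and 0.92 on its 2 probe sets), Tmpo (0.92), which encodes a protein of the nuclear lamina, and Xiap (0.91), which encodes an inhibitor of caspases. Most like Cd14 were Rac2 (r = 0.98, rho = 0.94), a GTPase of blood cells, Spats2l (0.96), Ddah1 (0.94), Lst1 (0.94) and Nucb1 (0.94). Without the 2 arrays farthest from the median, stage I replicates 1 and 2 for C1q, and stage I replicate 1 and stage II replicate 3 for Cd14, r was 0.91 for Fcer1g and 0.93 for Rac2. The arrays share their groups and their normalization, and these genes were picked as the highest among all probe sets.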

How the data were processed

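The authors deposited 1 log2 value per probe set and array. How they were summarised and normalized is not given in the sources used here. Values between 2.69 and 14.4 settled the scale. Quartiles of the arrays differed by at most 0.16, and 0 pairs of arrays were identical. Detection calls were not used, so no background limit is known, and the number of arrays limits the precision. The table held 16376 probe sets, and the platform annotation gave 14674 of them 1 symbol, 427 several and 1275 none. Symbols were set against RefSeq (GRCm38.p6) through 14632 Entrez identifiers, which changed 0.

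A model with 1 mean per group was fitted to all 12 arrays and the 14674 probe sets with limma 3.58.1 (lmFit, eBayes) in R 4.3.3, with no filter on low values. P-values were adjusted by Benjamini-Hochberg over all probe sets, with a threshold of 0.05. Groups and numbers come from the titles, which call the samples biological replicates. Exact permutation tests used scipy 1.17.1. The scripts were tested on simulated data.

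The members, 20 gene lists and all tests were chosen with earlier results of these data known. The rule for names took every member, Pgr, up to 4 called probe sets per list with the largest change in stage II (2 where none passed), and 5 probe sets most like C1q and Cd14. Other names were chosen after their values were seen: Mpeg1, Cd163, Mertk, Lgals3, C1ra, C1s1, Serping1, Tlr4, Spi1, C3ar1, Fcer1g in its list, and the second probe sets of Csf1 and Trem2. Not all genes named by the rule are printed. The alternatives were other normalizations, filters, probe set rules, variance models and samples, the replicate number as a block, and each array left out.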

Additional observations from a re-analysis of the deposited data

Results flagged for a closer look

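The 2 stages differed in Cd14, whose log2 level was 1.64 higher in stage II than in stage I (limma, adjusted p = 0.0016), with 3 of 3 stage II ovaries above all 3 stage I ovaries. In the 12 fits that left out 1 array the difference was 1.43 to 1.97 and always passed. No control array stood far apart from the other 5 on any of the 9 probe sets or on Pgr, in 10 groups of values checked. Groups of 3 were not checked in this way.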

How the results depend on the processing

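Cd14 and Aif1 kept their stage II calls under all 12 fits without 1 array and all 11 other settings. Cd14 also kept its call between the stages in all of them. The count of members called in stage II was 8 in the main fit and 3 to 8 without 1 array, with 3 without stage II replicate 3 and 5 without control replicate 1, 2 or 4 or stage II replicate 1. It was 5 without control replicates 1 and 4 together. The replicate numbers do not mark a pairing in the labels: same-numbered arrays had correlations of deviations from -0.15 to 0.20. Each of 18 comparisons picked the closest of 3 arrays, and 7 of them picked the same number. With the replicate block the count was 3 in stage II and 1 for both stages. The stage II calls lost with the block were those of Csf1r on all 3 probe sets, C1qb and Fcgr1. For both stages against control it was 7, 2 with the ovaries carrying the allele as 1 group of 6, and 4 to 8 without 1 array, lowest without control replicate 3 or stage II replicate 3. As 1 group of 6, Cd14 itself had an adjusted p of 0.072. In stage I it was 0 to 2 without 1 array, 2 without stage I replicate 2, and 0 in all other settings. Between the stages it was 1 throughout.

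Differences near 0 changed sign. Between the stages, with 1 array left out, Csf1r ran from -0.11 to 0.15 (1419872_at), -0.0645 to 0.21 (1419873_s_at) and -0.0641 to 0.26 (1423593_a_at). C1qa ran from -0.18 to 0.23, C1qb from -0.16 to 0.23 and Lyz2 from -0.15 to 0.24, and Lyz2 in stage I against control from -0.043 to 0.36. With quantile normalization Csf1r 1419872_at was -0.0216 and C1qa -0.0056 between the stages. Over all probe sets, stage I calls numbered 28, but 6 with the replicate block and 16 without control replicates 1 and 4. Stage II calls numbered 2969, with 1405 higher, but 1379 with the block and 1449 without stage II replicate 3, and 3341 with 1285 higher after quantile normalization. Between the stages the 1669 calls became 775 with the block, 553 with these groups alone, 2771 with array weights, and 759, 748 and 739 without stage I replicate 2, stage I replicate 3 and stage II replicate 3. For both stages the 936 calls, 666 of them higher, became 54 as 1 group of 6, 296 with the block, 1641 with array weights and 1060, with 644 higher, after quantile normalization. Detection limits were not measured, so small differences of dim probe sets may be understated.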
